A study of Mus musculus with 7 samples.

Results

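The genes described here mark the development of B cells, and they were taken as the rows of the deposited table whose gene name was exactly Rag1, Rag2, Vpreb1, Igll1, Pax5, Ebf1, Cd79a, Cd79b or Ms4a1. Each name matched 1 row, which gave 9 of the 55401 genes in the table, and all 9 were among the 16429 genes that passed the filter on low counts. RNA was sequenced from the right knees of male C57BL/6J mice, either WT or Trpc1-/-, that were 10 weeks old at destabilization of the medial meniscus (DMM), a surgery that induces osteoarthritis, and that were killed 2 weeks later. All samples came from operated knees, and no sham-operated knee was analysed here. The labels give 4 WT and 3 Trpc1-/- samples, each a pool of cartilage from 2 to 3 mice, whereas the Methods give 3 and 4 and list subchondral bone beside the cartilage. The labels were used. Trpc1-/- mice lack the calcium-permeable channel TRPC1 in all tissues, so that blood and marrow cells carried the deletion as well as chondrocytes.

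B cells arise in the bone marrow in a fixed order of stages. Ebf1 and Pax5 are the transcription factors that set up and then maintain B-cell identity. In pro-B cells and again in pre-B cells, Rag1 and Rag2, the subunits of the recombinase, cut the immunoglobulin genes so that their segments can be joined. Vpreb1 and Igll1 (also called lambda 5) form the surrogate light chain, which pairs with a newly made heavy chain in the receptor of pre-B cells. Cd79a and Cd79b are the signaling chains of that receptor and of the later B-cell receptor, and Ms4a1 encodes CD20, a surface protein that rises late in B-cell development and marks mature B cells. Outside the B lineage, Rag1 and Rag2 are used by developing T cells, and Ebf1 is also expressed in adipocytes and stromal cells of the marrow.

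The libraries held between 52142451 and 118254070 counts on genes, and the floor of 3 counts was 0.0254 to 0.0575 CPM (counts scaled to a common library size), depending on the sample. WT replicate 1 stood apart. It had the lowest total and gave 19.6% of its counts to the mitochondrial ribosomal RNA gene mt-Rnr2, against 12.3% to 15.4% in the other samples, and the mean correlation of its log2 CPM with the other samples was 0.947, against 0.973 to 0.980 for the rest. The targeted gene, Trpc1, averaged 4.62 ± 0.229 CPM over the WT group (SD, n = 4) and 3.39 ± 0.379 CPM over the Trpc1-/- group (SD, n = 3), without overlap. Reads on the exon removed in the mutant were not counted apart from the rest of the gene. Between Trpc1-/- and WT samples its log2 fold change (logFC) was −0.44 (SE 0.13), and the adjusted P was 0.407 by edgeR and 0.050 by DESeq2. Chondrocyte markers were well above the floor, with a mean log2 CPM between 7.49 and 8.25 per sample. Markers of marrow and blood cells were as plainly present in this tissue labelled as articular cartilage, with a mean log2 CPM of 8.90 to 9.82 over 8 erythroid and of 8.75 to 10.2 over 8 neutrophil genes. In such bulk samples, fewer cells of a type and less RNA per cell cannot be told apart.

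All 9 B-cell genes were detected in every sample, with between 119 and 8181 counts per gene and sample, and none differed between the genotypes at an adjusted P under 0.05. The values lay at similar levels for Rag1, Rag2 and Ebf1, while the Trpc1-/- means of Vpreb1, Igll1, Pax5, Cd79a, Cd79b and Ms4a1 were above the WT means without passing the test. The B lineage was also visible in genes outside the 9. Ighm, the heavy chain of IgM, lay between 192 and 512 CPM. Ptcra, the surrogate chain of the immature T-cell receptor, had 0 counts in all 7 samples. The T-cell gene Cd3e lay between 0.675 and 1.29 CPM. The plasmacytoid dendritic cell gene Siglech lay at most at 25 CPM, which was above the highest levels of Vpreb1, 5.68 CPM, and Igll1, 12.8 CPM. The mean log2 CPM of 5 plasmacytoid dendritic cell genes was 3.01 to 3.89 per sample, beside 2.86 to 3.61 for Rag1, Rag2, Vpreb1 and Igll1.

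**Figure D1:**
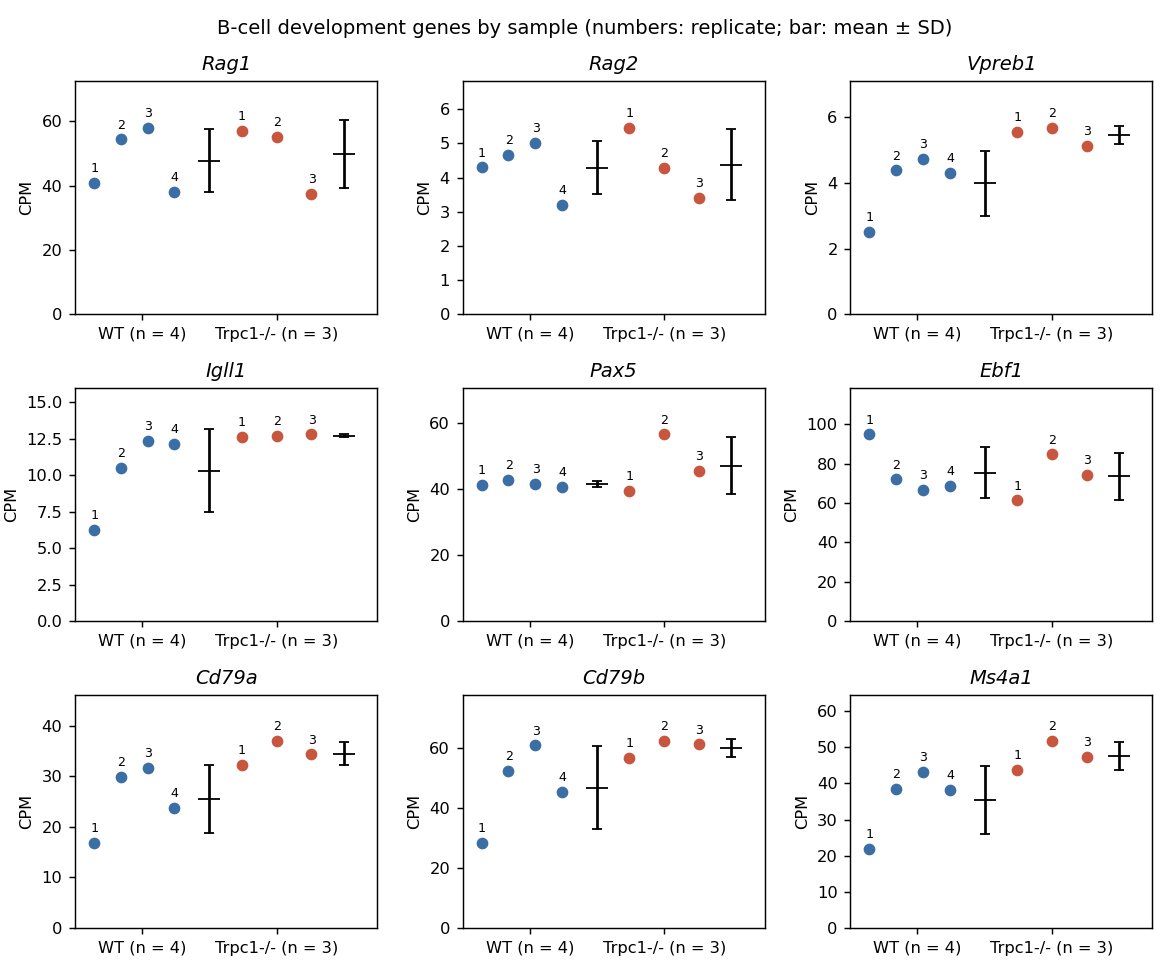
Level of each of the 9 genes in CPM (vertical axis, starting at 0, scaled by TMM) in the 4 WT samples (blue) and the 3 Trpc1-/- samples (red), with the replicate number above each point and the mean ± SD beside each group. WT replicate 1 is the lowest sample for Vpreb1, Igll1, Cd79a, Cd79b and Ms4a1 and the highest for Ebf1.

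Compared per length of exon, as RPKM (CPM divided by exon length), the receptor chains were the most abundant. The median level over the 7 samples was 39.5 RPKM for Cd79b and 21.7 RPKM for Cd79a, and Cd79b was above Cd79a in 7 of 7 samples, although the ranges of the 2 genes over the samples overlapped. Every sample had more Cd79a than the highest level of Rag1, whose median was 8.23 RPKM. Medians of 7.37 RPKM for Ebf1, 6.98 RPKM for Ms4a1, 5.71 RPKM for Igll1, 4.70 RPKM for Pax5 and 3.94 RPKM for Vpreb1 followed, and each of these genes overlapped the one before it in the order. Rag1 was above Ebf1 in 3 of 7 samples, and Ebf1 was above Ms4a1 in 4 of 7, so this part of the order was not fixed. Rag2 was lowest, with a median of 1.26 RPKM and a highest level of 1.60 RPKM that lay below the lowest level of Vpreb1, 2.09 RPKM. Thus the 2 subunits of the recombinase differed in level, and the CPM of Rag1 was between 9.49 and 12.9 times that of Rag2 in each sample.

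Rag1 (ENSMUSG00000061311, chr2:101638282-101649501, GRCm38) had 40.8, 54.4, 58.0 and 38.1 CPM in WT replicates 1 to 4 and 57.0, 55.1 and 37.5 CPM in Trpc1-/- replicates 1 to 3. Its samples fell at 37.5 to 40.8 CPM in WT replicates 1 and 4 and Trpc1-/- replicate 3 and at 54.4 to 58.0 CPM in the other 4, and both levels occurred in both genotypes. The WT mean was 47.8 ± 9.86 CPM (SD, n = 4) and the Trpc1-/- mean 49.9 ± 10.7 CPM (SD, n = 3), with a logFC of 0.06 (SE 0.20, adjusted P = 0.922 by edgeR, 95% interval −0.40 to 0.52).

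Rag2 (ENSMUSG00000032864) lies 5.75 kb from Rag1 on chromosome 2 and is transcribed from the opposite strand. It had 4.30, 4.65, 5.01 and 3.21 CPM in the WT samples and 5.46, 4.28 and 3.42 CPM in the Trpc1-/- samples. Again WT replicate 4 and Trpc1-/- replicate 3 were the lowest of their groups, and the groups overlapped. With a logFC of 0.03 (SE 0.21, adjusted P = 0.964 by edgeR, 95% interval −0.46 to 0.52), neither a rise nor a fall of about 0.4 on the log2 scale could be told from no difference.

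The genes of the surrogate light chain lie 4.42 kb apart on chromosome 16. Vpreb1 (ENSMUSG00000059305, chr16:16868403-16870843) had 2.51, 4.38, 4.73 and 4.31 CPM in WT and 5.56, 5.68 and 5.13 CPM in Trpc1-/- samples. Every Trpc1-/- sample lay above every WT sample. The means were 3.98 ± 1.00 CPM (SD, n = 4) and 5.46 ± 0.286 CPM (SD, n = 3), and the logFC of 0.45 (SE 0.21, 95% interval −0.04 to 0.94) had an adjusted P of 0.515 in edgeR and 0.389 in DESeq2. Of the 75-base windows in the exons of Vpreb1, 10.9% are shared with its near copy Vpreb2, which lay between 0.534 and 0.996 CPM and was not tested, so that counts could be split between them. The shares of windows held in common with any other gene were 12.9% for Vpreb1, 6.31% for Pax5, 4.48% for Cd79a, 3.97% for Rag2, 0.122% for Rag1 and 0% for the other 4 genes. Vpreb1 also overlaps Top3b on the opposite strand. Rag1 overlaps the protein-coding gene B230118H07Rik on the same strand, and Rag2 overlaps it on the opposite strand. Pax5 overlaps Mir5120 on the same strand, and Pax5, Ebf1 and Ms4a1 each overlap an antisense gene.

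Igll1 (ENSMUSG00000075370, chr16:16860671-16863985) had 6.24, 10.5, 12.3 and 12.1 CPM in WT and 12.6, 12.7 and 12.8 CPM in Trpc1-/- samples. Here, too, the groups did not overlap, but WT replicates 3 and 4 lay within 1 CPM of the Trpc1-/- samples and most of the difference came from WT replicate 1. The logFC was 0.30 (SE 0.22, adjusted P = 0.628 by edgeR), with means of 10.3 ± 2.83 CPM (SD, n = 4) and 12.7 ± 0.0947 CPM (SD, n = 3). Without WT replicate 1 the logFC was 0.12.

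Pax5 (ENSMUSG00000014030, chr4:44524757-44710487) was the steadiest of the 9 genes in WT, at 41.3, 42.9, 41.6 and 40.6 CPM. Its Trpc1-/- samples, at 39.4, 56.6 and 45.5 CPM, lay on both sides of the WT range. The logFC was 0.18 (SE 0.12, adjusted P = 0.601 by edgeR, 95% interval −0.09 to 0.45). Without Trpc1-/- replicate 2, the highest sample, it was 0.02.

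Ebf1 (ENSMUSG00000057098, chr11:44617317-45008091) had 94.8, 71.9, 66.6 and 68.5 CPM in WT and 61.3, 84.7 and 74.4 CPM in Trpc1-/- samples. It was the one gene of the 9 for which WT replicate 1 was the highest of all samples, and its logFC of −0.04 (SE 0.16, adjusted P = 0.936 by edgeR) was the one below 0. Adipocyte markers were also high in WT replicate 1, at 1.08 to 1.70 times the median of the other WT samples in 6 of 6 genes, against 1.38 times for Ebf1. The part of these cells in the level of Ebf1 was not tested.

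Cd79a (ENSMUSG00000003379, chr7:24897381-24902197) had 16.9, 29.9, 31.6 and 23.8 CPM in WT and 32.2, 36.9 and 34.3 CPM in Trpc1-/- samples, without overlap. The means were 25.5 ± 6.68 CPM (SD, n = 4) and 34.5 ± 2.33 CPM (SD, n = 3), and the logFC of 0.43 (SE 0.20, 95% interval −0.03 to 0.89) had an adjusted P of 0.510 in edgeR and 0.372 in DESeq2. Its partner chain followed the same samples. Cd79b (ENSMUSG00000040592, chr11:106311341-106314762) had 28.4, 52.3, 60.8 and 45.2 CPM in WT and 56.6, 62.1 and 61.1 CPM in Trpc1-/- samples, where WT replicate 3 lay above Trpc1-/- replicate 1. Its logFC was 0.36 (SE 0.22, adjusted P = 0.587 by edgeR). The ratio of Cd79b to Cd79a in CPM was between 1.68 and 1.93 in every sample.

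Ms4a1 (ENSMUSG00000024673, chr19:11249675-11266241) had 21.8, 38.4, 43.2 and 38.3 CPM in WT and 43.7, 51.7 and 47.4 CPM in Trpc1-/- samples. The groups did not overlap, although WT replicate 3 and Trpc1-/- replicate 1 were close. The means were 35.4 ± 9.37 CPM (SD, n = 4) and 47.6 ± 3.97 CPM (SD, n = 3), and the logFC was 0.42 (SE 0.21, adjusted P = 0.528 by edgeR, 95% interval −0.07 to 0.92).

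Across the 9 genes, the quasi-likelihood test of edgeR, adjusted by Benjamini-Hochberg, called 0, and 0 had an unadjusted P under 0.05. The backgrounds were 0% of the 16429 tested genes called at an adjusted P under 0.05, and 4.51% higher and 5.49% lower in Trpc1-/- samples at an unadjusted P under 0.05. DESeq2, the method of the study, also called 0 of the 9 genes, against a background of 1.79%, and gave 2 of them, Vpreb1 and Cd79a, an unadjusted P under 0.05 with higher values in Trpc1-/- samples, where 5.92% of all tested genes did. Of the 9 genes, 8 had a logFC above 0, where 48.1% of all tested genes did, and in 4 of them (Vpreb1, Igll1, Cd79a and Ms4a1) the Trpc1-/- samples lay wholly above the WT samples, where 7.15% of all tested genes did. The median logFC of the 9 genes was 0.30, beside −0.01 over all tested genes. These genes were read from the same samples and cells, so their shared direction is not repeated evidence.

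**Figure D2:**
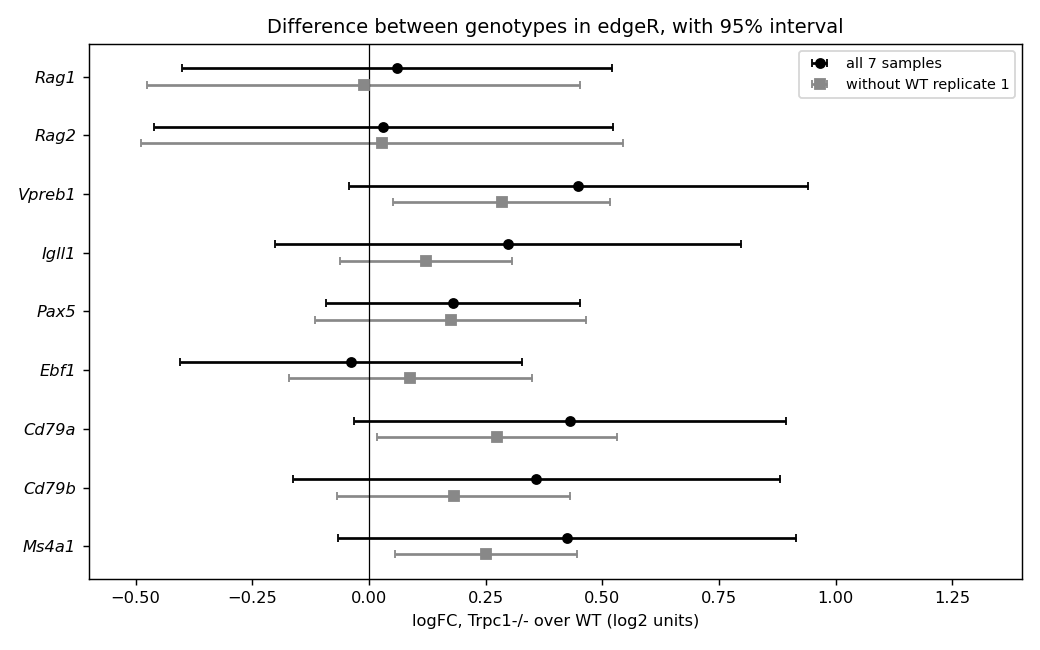
LogFC of each gene between Trpc1-/- and WT samples (horizontal axis, log2 units) with the 95% interval from edgeR, for all 7 samples (black circles) and without WT replicate 1 (gray squares). All 9 intervals include 0 with all samples, and those of Vpreb1, Cd79a and Ms4a1 lie above 0 without WT replicate 1.

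The sample that stood apart moved these genes unequally. In CPM, WT replicate 1 lay at 0.573 times the median of the other WT samples for Vpreb1, 0.514 for Igll1, 0.563 for Cd79a, 0.543 for Cd79b and 0.567 for Ms4a1. For Rag1 it lay at 0.750, for Rag2 at 0.924, for Pax5 at 0.993 and for Ebf1 at 1.38. These ratios were set beside gene span. The 5 genes at the lowest ratios span 2.44 to 16.6 kb, while Pax5 spans 186 kb and Ebf1 391 kb, although Rag1, at 11.2 kb, and Rag2, at 7.81 kb, did not follow. Over all tested genes, the median of this ratio was 0.904 for genes under 10 kb, 0.961 from 10 to 50 kb, 1.08 from 50 to 100 kb and 1.21 above 100 kb, while the medians of the other WT samples lay between 0.919 and 1.03 in each class. The part of gene span in the levels of the B-cell genes was not tested. Markers of other blood cells were low in the same sample, with all 8 neutrophil genes at 0.277 to 0.474 and all 6 macrophage genes at 0.411 to 0.759 times the median of the other WT samples.

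Without WT replicate 1, the median logFC of the 9 genes was 0.17 in place of 0.30. The logFC was 0.28 (SE 0.10, adjusted P = 0.226 by edgeR) for Vpreb1, 0.28 for Cd79a and 0.25 (adjusted P = 0.210 by edgeR) for Ms4a1, and these 3 of the 9 genes had an unadjusted P under 0.05 with higher values in Trpc1-/- samples, where 8.53% of all tested genes did in the same fit. For Cd79b it was 0.18. None of the 9 was called, while edgeR called 52 genes (0.320%) over the whole table without this sample.

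**Figure D3:**
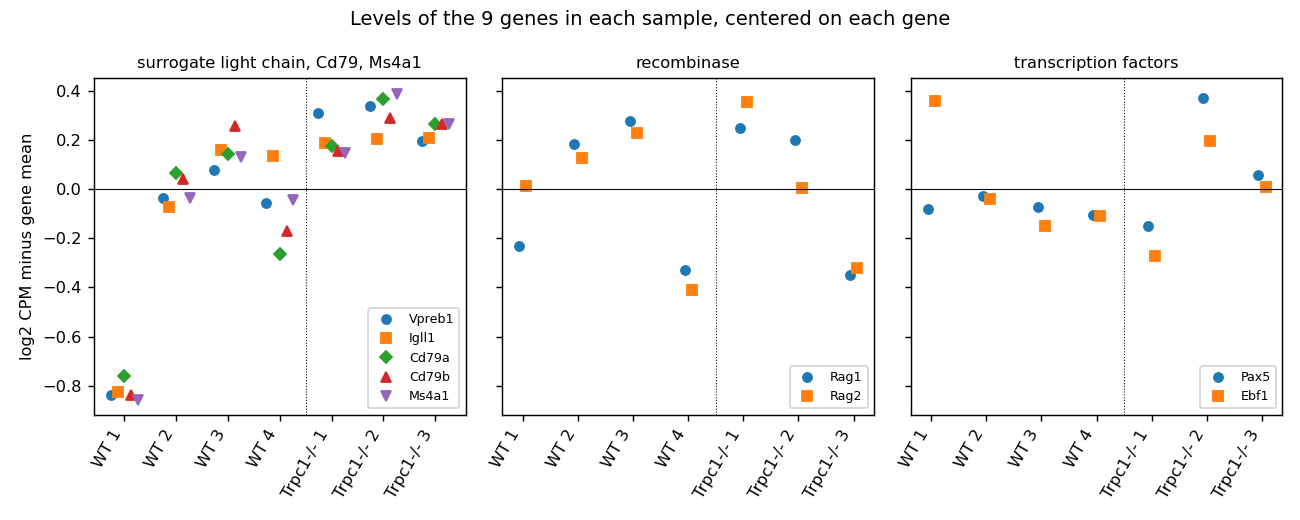
Log2 CPM of each gene minus its mean over the 7 samples (vertical axis, log2 units), by sample, with WT to the left and Trpc1-/- to the right of the dotted line. Vpreb1, Igll1, Cd79a, Cd79b and Ms4a1 (left) shared a low value in WT replicate 1. Rag1 and Rag2 (middle) were low in WT replicate 4 and Trpc1-/- replicate 3, and Rag1 also in WT replicate 1. Pax5 and Ebf1 (right) were high in Trpc1-/- replicate 2, but Ebf1 was highest in WT replicate 1.

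Several of the 9 genes had similar values over the samples. Pearson's r between the log2 CPM of Vpreb1, Igll1, Cd79a, Cd79b and Ms4a1 lay between 0.88 and 0.98 for each pair, as a description over 7 samples that share depth and the state of WT replicate 1. Without that sample it fell to between 0.37 (Igll1 and Cd79a) and 0.95 (Cd79a and Cd79b). Rag1 and Rag2 had an r of 0.87 with each other, and of 0.94 without WT replicate 1, but Rag2 had an r of 0.00 with Ms4a1. Pax5 and Ebf1 had an r of 0.48 over all samples, near the 0.49 of Pax5 with Cd79a, and of 0.94 without WT replicate 1, where Pax5 with Ms4a1 had 0.77. Vpreb1, counted here with Rag1 among the pro-B and pre-B genes, had an r of 0.44 with Rag1 and of 0.98 with Ms4a1. Without WT replicate 1 these values were 0.31 and 0.87.

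The genes closest to the mean profile of the 8 members other than Ebf1, by Pearson's r over the 7 samples, were C1galt1 (r = 0.992), Fcrla (0.986), Hibch (0.985), Ccl5 (0.983) and Ap5m1 (0.983). Fcrla, an intracellular Fc receptor-like protein of B cells, had 9.38, 19.3, 22.6 and 14.7 CPM in WT and 20.1, 23.6 and 20.3 CPM in Trpc1-/- samples. Such values were common, since 552 tested genes had an r of at least 0.9 with this profile. For Ebf1 the closest were Gm26982 (r = 0.990), Coq8a (0.988), Gm21816 (0.988), Desi1 (0.987) and Agbl1 (0.985), among 451 genes with an r of at least 0.9. Coq8a had 16.7 CPM in WT replicate 1 and 8.60 to 13.6 CPM in the other samples, the same high sample as for Ebf1.

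Because several members had similar values over the samples, the promoters in RefSeq (GRCm38.p6), which run from 250 bases before to 50 bases after the annotated start, were searched on both strands for CCCNNGGG, the core to which EBF1 is known to bind, and for CAGGTG, an E-box bound by E proteins such as TCF3. Promoters were held for 7 of the 9 genes, and those of Cd79b and Ms4a1 were not analysed here. CAGGTG occurred in 4 of the 7, those of Rag1, Vpreb1, Igll1 and Cd79a, and in 20.2% of all 32841 promoters, while CCCNNGGG occurred in that of Igll1 and in 13.7% of all. The 4 sequences with an E-box are shown 5′ to 3′ with matches to either motif in capitals, to set the letters beside the levels given above.
Rag1 (chr2:101649483-101649782, minus strand): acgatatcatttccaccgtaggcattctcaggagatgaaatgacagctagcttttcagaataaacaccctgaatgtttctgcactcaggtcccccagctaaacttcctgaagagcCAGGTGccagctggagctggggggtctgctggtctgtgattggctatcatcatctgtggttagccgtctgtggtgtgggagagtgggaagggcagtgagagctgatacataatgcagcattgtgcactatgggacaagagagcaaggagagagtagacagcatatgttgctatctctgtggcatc
Vpreb1 (chr16:16869206-16869505, minus strand): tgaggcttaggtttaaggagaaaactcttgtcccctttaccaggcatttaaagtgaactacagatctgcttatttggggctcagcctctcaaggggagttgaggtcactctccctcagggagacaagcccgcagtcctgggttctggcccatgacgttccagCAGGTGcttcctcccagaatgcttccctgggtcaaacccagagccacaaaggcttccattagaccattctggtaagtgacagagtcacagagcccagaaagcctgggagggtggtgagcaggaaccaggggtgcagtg
Igll1 (chr16:16863936-16864235, minus strand): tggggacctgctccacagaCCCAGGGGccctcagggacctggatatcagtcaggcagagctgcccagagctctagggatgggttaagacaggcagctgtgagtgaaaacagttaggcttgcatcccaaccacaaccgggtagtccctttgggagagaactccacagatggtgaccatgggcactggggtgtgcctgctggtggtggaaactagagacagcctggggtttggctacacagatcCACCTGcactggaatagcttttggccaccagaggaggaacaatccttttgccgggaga
Cd79a (chr7:24897247-24897546, plus strand): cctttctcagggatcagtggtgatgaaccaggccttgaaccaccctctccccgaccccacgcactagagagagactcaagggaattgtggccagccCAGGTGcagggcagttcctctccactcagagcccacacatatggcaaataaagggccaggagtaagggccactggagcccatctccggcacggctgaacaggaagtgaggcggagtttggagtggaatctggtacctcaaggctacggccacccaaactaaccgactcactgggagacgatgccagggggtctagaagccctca
The E-box lies 135 bases before the start in Rag1, 88 in Vpreb1, 8 in Igll1 and 154 in Cd79a, and the EBF1 core lies 231 bases before the start in Igll1. The start of Vpreb1 in RefSeq is 1588 bases from the 5′ end of the gene in GENCODE. Neither motif occurred in the promoters of Rag2, Pax5 or Ebf1. Among the 4 genes with an E-box, Rag1 was lowest in Trpc1-/- replicate 3, while the other 3 genes were lowest in WT replicate 1. A match of letters describes the sequence and is not a measured site.

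The stages were then compared within each sample, as the mean log2 CPM of the 4 pro-B and pre-B genes (Rag1, Rag2, Vpreb1 and Igll1) minus the log2 CPM of Ms4a1. This difference was −1.59, −1.89, −1.92 and −2.10 in WT and −1.85, −2.18 and −2.31 in Trpc1-/- samples. The genotypes overlapped, and the Trpc1-/- mean was 0.24 below the WT mean on the log2 scale, with an SD of 0.21 in WT and 0.24 in Trpc1-/- samples. No test was run on it. The Trpc1-/- mean minus the WT mean was −0.14 without WT replicate 1 and −0.14 without Trpc1-/- replicate 3.

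The genes of the early stages contributed unequally to this difference. The ratio of Rag1 to Ms4a1 in CPM was 1.87, 1.42, 1.34 and 0.996 in WT and 1.30, 1.07 and 0.792 in Trpc1-/- samples. In contrast, the ratio of Vpreb1 to Ms4a1 stayed between 0.108 and 0.127 over all samples, WT replicate 1 included, and that of Igll1 to Ms4a1 between 0.247 and 0.317. A narrow range was not particular to the surrogate light chain genes. Over all samples, the ratio to Ms4a1 lay between 0.622 and 0.779 for Cd79a and between 1.18 and 1.41 for Cd79b. The recombinase genes ranged more widely relative to their level, and the ratio of Rag2 to Ms4a1 lay between 0.072 and 0.197. For Pax5 to Ms4a1 the ratio was 1.90 in WT replicate 1, while the other 6 samples lay between 0.90 and 1.12.

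**Figure D4:**
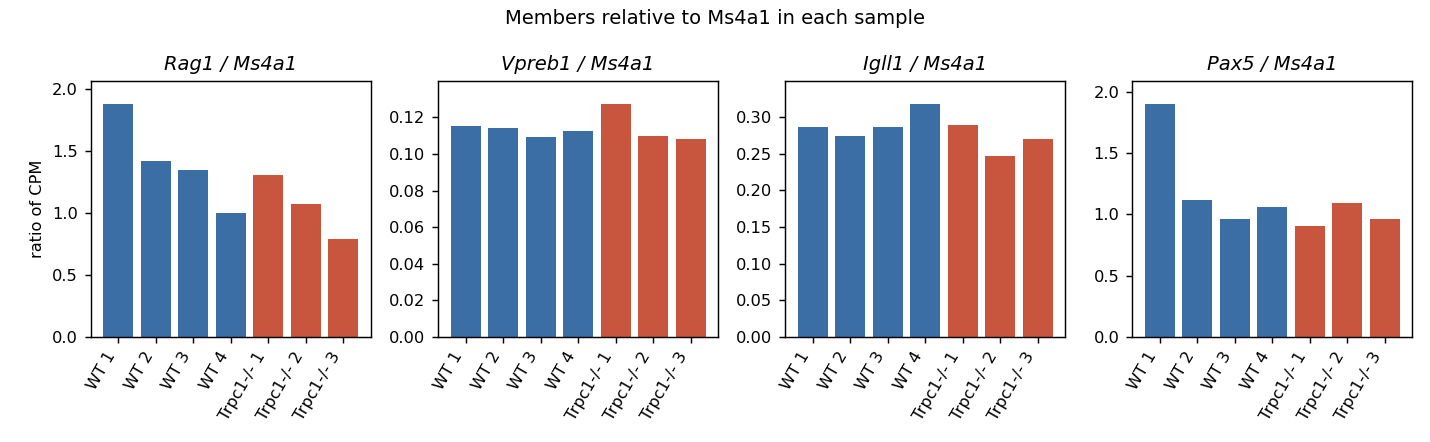
Ratio of the CPM of Rag1, Vpreb1, Igll1 and Pax5 to that of Ms4a1 (vertical axes, starting at 0) in each WT (blue) and Trpc1-/- (red) sample. Vpreb1 stays between 0.108 and 0.127, while Rag1 ranges from 0.792 to 1.87.

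Set against Ptprc, which encodes CD45, the antigen of all white blood cells, the B-cell genes overlapped between the genotypes in the examples below. Ptprc had 384, 505, 527 and 624 CPM in WT and 540, 561 and 599 CPM in Trpc1-/- samples, with a logFC of 0.15 (SE 0.16, adjusted P = 0.732 by edgeR). In CPM, Ms4a1 reached 6.90% ± 1.19 of Ptprc over the WT group (SD, n = 4) and 8.41% ± 0.704 over the Trpc1-/- group (SD, n = 3), and the groups overlapped. Rag1 was 9.63% ± 2.35 and 8.88% ± 2.29 of Ptprc in the same order, and Cd79b was 9.13% ± 2.15 and 10.6% ± 0.454.

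Other genes of the B lineage were described in lists for the stages and functions around the 9 genes. No list held a gene called by edgeR. Of the 12 genes of mature B cells, which do not include Ms4a1, 6 (50%, where all tested genes gave 4.51%) had an unadjusted P under 0.05 with higher values in Trpc1-/- samples. Of the 12, 10 had a logFC above 0, where 48.1% of all tested genes did, and the median logFC was 0.47. The list was chosen with earlier results of these data known. Its genes were read from the same samples and cells, so their shared direction is not repeated evidence. Fcer2a, which encodes CD23 of follicular B cells, had 4.32, 4.60, 4.52 and 5.14 CPM in WT and 5.36, 8.53 and 8.81 CPM in Trpc1-/- samples. It was the one gene of this list called by DESeq2 (adjusted P = 0.0354), which called 1.79% of all tested genes in either direction. The logFC of Fcer2a was 0.70 (SE 0.18, adjusted P = 0.395 by edgeR). Its Trpc1-/- replicate 1 lay just above the highest WT sample. Ighd, the heavy chain of IgD on naive B cells, had a logFC of 0.58 (adjusted P = 0.407 by edgeR), and Cr2, the complement receptor CD21, one of 0.78 (adjusted P = 0.431 by edgeR), and in both the groups overlapped. Cd40, the costimulatory receptor, had a logFC of −0.02 and Cd37, a tetraspanin of mature B cells, one of −0.07. Without WT replicate 1, 7 genes of the list had an unadjusted P under 0.05 with higher and 1, Cd37, with lower values in Trpc1-/- samples, and the median was 0.33. All tested genes gave 8.53% with higher values in that fit. Without Trpc1-/- replicate 2, 3 of the 12 genes did, where all tested genes gave 3.93%, and without Trpc1-/- replicate 3 also 3, where all tested genes gave 2.13%.

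The genes of earlier stages lay nearer to the background. Of 12 genes of early B cells 11 were tested, 6 had a logFC above 0, and the median was 0.07. Cd24a, which encodes the heat-stable antigen, was the one at an unadjusted P under 0.05, with a mean of 857 ± 145 CPM over the WT group (SD, n = 4), 1186 ± 91.0 CPM over the Trpc1-/- group (SD, n = 3) and a logFC of 0.47 (SE 0.16, adjusted P = 0.435 by edgeR). Cd24a is also expressed in erythroid cells, whose 8 markers all had a logFC above 0, with 7 at an unadjusted P under 0.05, 3 called by DESeq2 and a median of 0.51. Of all tested genes, 48.1% had a logFC above 0 and 4.51% were higher at an unadjusted P under 0.05 in edgeR. DESeq2 called 1.79% in either direction. The part of erythroid cells in the level of Cd24a was not tested. Il7r, the receptor for the cytokine that drives pro-B cells, had a logFC of 0.16 (SE 0.10, adjusted P = 0.578 by edgeR), and Bst1, a surface enzyme of early B cells, one of 0.27 (adjusted P = 0.549 by edgeR), which was 0.16 without WT replicate 1. The median of the list was 0.01 without that sample. In that fit, 1 gene of the list had an unadjusted P under 0.05 by edgeR with higher and 2 with lower values in Trpc1-/- samples. Of all 16242 tested genes, 1386 were higher and 1362 lower in the same way. Dntt, the polymerase that adds bases at immunoglobulin joints, had 11.8, 17.1, 19.7 and 20.4 CPM in WT and 23.3, 21.5 and 17.7 CPM in Trpc1-/- samples, so that its groups overlapped.

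**Figure D5:**
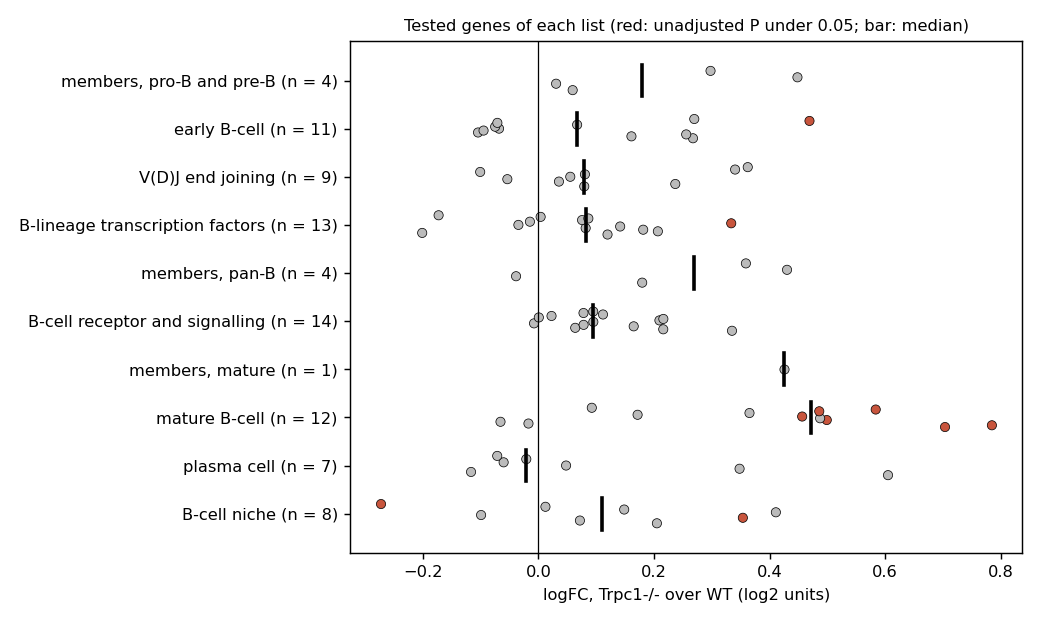
LogFC between Trpc1-/- and WT samples (horizontal axis, log2 units) of each tested gene in lists of the B lineage and its niche, with the median of each list as a bar and genes at an unadjusted P under 0.05 in red. The mature B-cell list has the highest median of the lists other than the 9 genes, 0.47, and holds 6 of the 10 red points.

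Among 13 transcription factors of the B lineage, 1 had an unadjusted P under 0.05 with higher values in Trpc1-/- samples, where 4.51% of all tested genes did. That gene was Pou2af1, a coactivator of B cells, with a logFC of 0.33 (SE 0.13, adjusted P = 0.475 by edgeR). Of the 13, 9 had a logFC above 0, where 48.1% of all tested genes did, and the median was 0.08. Tcf3, an E protein required for B-cell commitment, had a logFC of 0.12 and Ikzf3, an Ikaros family factor, one of 0.18. Of 14 genes of the B-cell receptor and its signaling, 13 had a logFC above 0, against the same 48.1% of all tested genes, and the median was 0.09. In edgeR, 0 had an unadjusted P under 0.05. DESeq2 gave 1 with higher values in Trpc1-/- samples, where 5.92% of all tested genes did. Without WT replicate 1, 8 of the 14 had a logFC above 0, where 49.7% of all tested genes did, and the median was 0.00. Blnk, the adaptor below the receptor, had a logFC of 0.16, Cd22, an inhibitory receptor, one of 0.22, and the kinase gene Blk one of 0.21.

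The machinery that rejoins DNA after the RAG cut was close to the background, with 7 of 9 genes above 0, 0 at an unadjusted P under 0.05 in edgeR and DESeq2, and a median of 0.08. Hmgb2 and Hmgb1, which assist RAG binding, had a logFC of 0.36 and 0.34 and Xrcc6, the Ku70 subunit, one of 0.24, which without WT replicate 1 were 0.21, 0.17 and 0.12. Of the 8 genes of plasma cells, the antibody-secreting end of the lineage, 7 were tested. Of these, 3 had a logFC above 0, against the same 48.1% of all tested genes. In edgeR and DESeq2, 0 had an unadjusted P under 0.05, and the median was −0.02. Jchain, which links secreted IgM and IgA, had 26.4 CPM in WT replicate 1 and 83.7 to 137 CPM in the other samples. Mzb1, a chaperone of antibody assembly, had a logFC of 0.35 and Sdc1, the plasma cell antigen CD138, one of −0.12. Without WT replicate 1, Mzb1 had a logFC of 0.21 and Jchain one of 0.32 in place of 0.60, and the median was −0.05.

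The niche that feeds B-cell precursors was measured in the same libraries. Kitl, the stem cell factor made by stromal cells, had 57.0, 49.6, 49.8 and 53.6 CPM in WT and 67.9, 61.8 and 71.6 CPM in Trpc1-/- samples, without overlap, and was called by DESeq2 (adjusted P = 0.0177) with a logFC of 0.35 (SE 0.08, adjusted P = 0.395 by edgeR). Cxcl12, the chemokine that holds precursors in the marrow, had a logFC of 0.20 (SE 0.09, adjusted P = 0.499 by edgeR), also without overlap. Foxc1, a transcription factor of these stromal cells, had a logFC of −0.27 (SE 0.10, adjusted P = 0.453 by edgeR). Il7 itself lay between 2.07 and 2.88 CPM with overlapping groups. Of the 8 niche genes, 1 (Kitl) had an unadjusted P under 0.05 with higher and 1 (Foxc1) with lower values in Trpc1-/- samples, 6 had a logFC above 0, and the median was 0.11. Over all tested genes, these shares were 4.51% higher, 5.49% lower and 48.1% above 0. In 3 of the 8 niche genes the Trpc1-/- samples lay wholly above the WT samples, where 7.15% of all tested genes did. DESeq2 called 1 of the 8, against 1.79% of all tested genes in either direction.

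Markers of other cell types were read beside the B-cell genes, and edgeR called none of them. All 6 adipocyte markers had a logFC above 0, with a median of 0.36 and 3 at an unadjusted P under 0.05. Of these, Adipoq was called by DESeq2 (adjusted P = 0.0231). All 7 chondrocyte markers had a logFC below 0, with a median of −0.43 and 2 at an unadjusted P under 0.05, and all 6 osteoblast markers had one below 0, with a median of −0.28. Over all tested genes, edgeR gave 48.1% with a logFC above 0, and 4.51% higher and 5.49% lower at an unadjusted P under 0.05. DESeq2 called 1.79% in either direction. The medians of the other lists were 0.24 for 9 T-cell genes (2 at an unadjusted P under 0.05), 0.23 for 6 macrophage genes, 0.13 for 3 leukocyte genes, 0.10 for 8 neutrophil genes and −0.01 for 5 plasmacytoid dendritic cell genes. Without WT replicate 1 these medians were 0.08 for T-cell, 0.08 for macrophage, −0.08 for leukocyte, −0.13 for neutrophil and −0.06 for plasmacytoid dendritic cell genes. There, 3 of 8 neutrophil genes were above 0 in place of 8, where 49.7% of all tested genes were. The remaining lists kept their direction in that fit. Their medians were 0.48 for adipocyte, 0.41 for erythroid, −0.42 for chondrocyte and −0.29 for osteoblast markers. The mean log2 CPM of the T-cell list lay between 0.24 and 1.35, that of the plasmacytoid dendritic cell list between 3.01 and 3.89, and that of the leukocyte list between 7.85 and 8.68. The part of the tissue's makeup in the values of the 9 genes was not tested.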

How the data were processed

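RNA-Seq was performed on 7 samples of knee cartilage after DMM. Per the Methods and the processing notes, the authors depleted ribosomal RNA from 300 ng of total RNA, made stranded libraries, trimmed reads with Cutadapt 2.5, aligned them to GRCm38 with HISAT2 2.1.0 and estimated coverage with StringTie 2.0.3. The authors deposited estimated counts per gene derived from that coverage. They are whole numbers and not normalized. How reads that fit several genes were assigned was fixed before deposition.

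Genes above 1 CPM in at least 2 samples were kept. In R 4.3.3, edgeR 4.0.16 scaled counts by TMM and fitted a quasi-likelihood model with genotype as its one term. P values were adjusted by Benjamini-Hochberg over all 16429 tested genes, with a threshold of 0.05. DESeq2 1.42.0, used by the study, was run on the same genes. CPM are TMM-scaled, and log2 CPM used a prior count of 1. Standard errors came from the F statistic. RPKM used exon lengths of GENCODE M21, which held 55141 of the 55401 gene IDs. Floors of 3 counts cover counting error only. The fits were tested on simulated data with known answers, and no 2 samples held identical values.

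The members and the gene lists were chosen with earlier results of these data known. Named genes are the 9 members, Trpc1, Ptprc, list genes called by edgeR, the 3 genes with the smallest P of each B-lineage or niche list, and the 5 genes most like each profile. Ighm, Igkc, Ptcra, Cd3e, Siglech, Vpreb2, Cd40, Cd37, Dntt, Il7 and Adipoq were added to these with their values known, and 1 gene of the lists is not reported here by name. The alternatives were DESeq2, other scalings, filters and prior counts, the replicate number as a block, the samples that share a range of mouse numbers (WT replicates 1 and 2 and all Trpc1-/- samples) alone, and each sample left out in turn.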

Additional observations from a re-analysis of the deposited data

How the results depend on the processing

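None of the 9 genes was called under any of the 15 alternatives, and the logFC of Vpreb1, Igll1, Pax5, Cd79a, Cd79b and Ms4a1 stayed above 0 in each. The number of genes called over the whole table was 0 in edgeR, 294 in DESeq2, and 0 to 52 in edgeR with each sample left out in turn, where 52 was without WT replicate 1. DESeq2 without WT replicate 1, an alternative added after seeing the data, called 892. The median logFC of the 9 genes was 0.55 with WT replicates 1 and 2 and the Trpc1-/- samples alone, which share a range of mouse numbers, and 0.17 to 0.40 with each sample left out in turn, lowest without WT replicate 1. The direction of Rag1, Rag2 and Ebf1, all near 0, changed with the setting. Rag2 was −0.015 with total counts in place of TMM and −0.031 with the shared range of mouse numbers alone. With each sample left out in turn, Rag1 lay between −0.047 and 0.23, Rag2 between −0.16 and 0.18 and Ebf1 between −0.16 and 0.088. In DESeq2 without WT replicate 1, Rag1 was −0.0074 and Ebf1 0.091. The cause of these changes was not tested. Deviations from the group mean had an r of −0.35, −0.20 and −0.04 between samples of the same replicate number, for replicates 1 to 3. The mean r of the other pairs was 0.066. These few values, centered within each group, cannot decide whether the numbers pair the samples. With the number as a replicate block over replicates 1 to 3, Rag1 was −0.044 and Rag2 −0.11, and edgeR called 0 genes, with 972 at an unadjusted P under 0.05. For the difference of the early genes from Ms4a1, the Trpc1-/- mean minus the WT mean stayed below 0 throughout, between −0.37 and −0.14. With 4 and 3 samples and a common dispersion of 0.0424, the 95% interval of Rag1 still runs from −0.40 to 0.52.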

Other observations

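Total counts on the 9 genes ran between 234 and 361 CPM per sample, relative to the deposited total, lowest in WT replicate 1. The spread of Vpreb1, Igll1, Cd79a, Cd79b and Ms4a1 over all 7 samples, as the SD over the mean, was 21.0% to 23.6% and fell to 7.03% to 14.2% without WT replicate 1, while that of Rag1 was 19.3% with and 19.1% without it and that of Rag2 18.7% and 20.5%. Igkc, the kappa light chain, had 71.3 CPM in WT replicate 1 and between 268 and 345 CPM in the other 6 samples.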
